A study of Mus musculus with 6 samples.

Results

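With probes against the RNA Hoxc4-au, the Creb3 locus on mouse chromosome 4 gave called peaks in replicate 2 and none in replicate 1. All peaks between positions 43570000 and 43585000 (build mm9) were taken as members, which gave 6 peaks of 9821 in the 4 peak lists. The lists of replicate 2 held 3 each, and the lists of replicate 1 held 0. The interval was chosen by the fold and −log10 q of its peaks in replicate 2 and by the lack of peaks in replicate 1, so these values are described here without a test.

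Creb3 encodes a transcription factor of the CREB/ATF family with a basic leucine zipper. The protein is made as a precursor anchored in the membrane of the endoplasmic reticulum, and cleavage in the Golgi apparatus frees its N-terminal part to enter the nucleus. It is known for its part in responses to stress of the secretory pathway. In the RefSeq gene table (GRCm38.p6), Creb3 lies on chromosome 4 between Tln1, which encodes talin, a link between integrins and actin, and Gba2, which encodes a glucosylceramidase outside the lysosome. That table is on another build than the peaks and served only for the names and order of genes. The interval was assigned to Creb3 by name, and neither this assignment nor the position of the sites relative to exons, introns or the promoter of Creb3 was analysed here.

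ChIRP-seq (chromatin isolation by RNA purification) finds DNA near an RNA: short biotinylated DNA probes along the RNA pull it out of crosslinked, sheared chromatin, and the DNA that comes with it is sequenced. The cells were preadipocytes, the precursors of fat cells, derived from the epididymal fat of C57BL/6 mice, with no other genotype, treatment or age in the labels. An even and an odd pool of probes were each used in 2 replicates, and the peaks of a capture were called against the input of the same replicate. Whether the replicates were separate animals or cultures is not stated in the labels, and no capture with probes against another RNA is among the 6 libraries. The files hold positions and no expression values, so the labelled cell type was not checked against markers.

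The libraries of replicate 1 were shallower. The peak caller kept 3934792 and 4099230 tags (even, odd) in replicate 1 and 11514289 and 10231007 in replicate 2, after duplicates of 47.6%, 40.2%, 9.65% and 7.16% were removed. The lists held 234, 204, 5226 and 4157 peaks in the same order. Each pool had 1 library per replicate, so intervals below cover counting error only and say nothing of variation between cultures.

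In replicate 2 the locus held 3 separate sites, each called with both pools. Of all 9088 regions with a peak of either pool in that replicate, 3.15% were called with both, and the members were chosen on these calls. The left site ran from 43575631 to 43576479 with the even pool and from 43575577 to 43576481 with the odd pool. The middle site ran from 43578077 to 43578454 and from 43578070 to 43578461. The right site ran from 43578940 to 43579718 and from 43578938 to 43579719. The left and right sites were thus broad, at 849 and 779 bp with the even pool and 905 and 782 bp with the odd pool, and the middle site was 378 and 392 bp wide. The median peak of these lists was 106 and 103 bp wide. Together the sites spanned 4143 bp, of which the peaks of either pool covered 2079 bp (50.2%). Between the left and middle sites 1588 bp held no peak of either pool, and between the middle and right sites 476 bp held none.

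**Figure D1:**
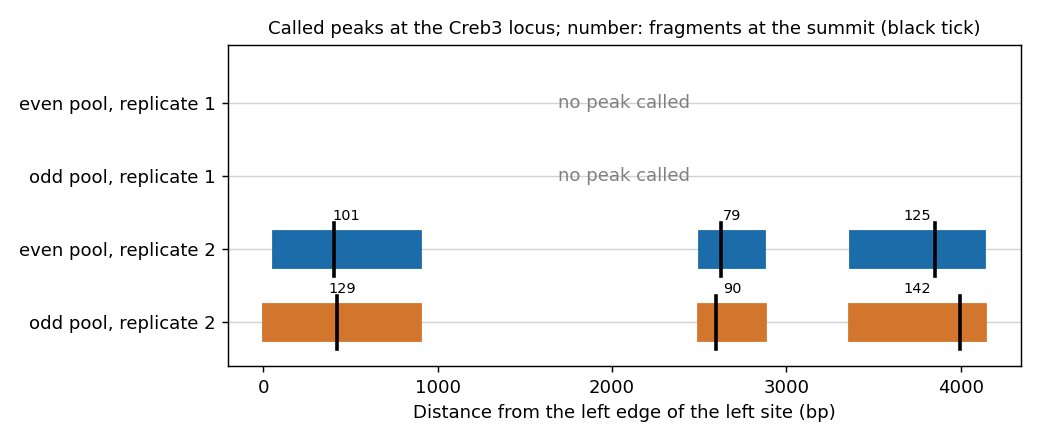
Peaks called at the Creb3 locus in each of the 4 lists, drawn to scale against the distance in bp from the left edge of the left site. Boxes are peaks, black ticks their summits and numbers the fragments at the summit; both replicate 2 rows show the same 3 blocks, and both replicate 1 rows are empty.

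The summit of the left site held 101 fragments with the even pool (exact 95% Poisson interval 82.3 to 123) and 129 with the odd pool (108 to 153). The middle site held 79 (62.5 to 98.5) and 90 (72.4 to 111). The right site held 125 (104 to 149) and 142 (120 to 167). The right site was thus the highest and the middle site the lowest with either pool, but the interval of the left site overlapped those of the other two with either pool. The intervals of the middle and right sites did not overlap with either pool. The caller kept 1 tag per position and extended tags to 95 bp, so a summit can hold at most 190 fragments, and the 6 summits reached between 41.6% and 74.7% of that number. This cap lowers the highest counts the most. Of 305 summit fragments with the even pool, the left, middle and right sites held 33.1%, 25.9% and 41.0%. Of 361 with the odd pool they held 35.7%, 24.9% and 39.3%, each within the exact binomial 95% interval of the even-pool share (27.9 to 38.7, 21.1 to 31.2 and 35.4 to 46.7).

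The fold enrichment over input, as the authors' peak caller gave it, ordered the sites differently. The middle site led with folds of 50.5 (even) and 59.9 (odd), followed by the right site with 43.6 and 53.4 and the left site with 35.3 and 48.5. The sites differed in the local background behind these folds. At the left and right sites it was equal to 2.0 input fragments with either pool, and at the middle site it was 0.619, the genome-wide mean of the input. The caller takes the highest of several local windows and that mean, so the input was at or below the genome-wide mean around the middle site and at most 2.0 fragments around the others. With the even pool 98.5% of the peaks, and with the odd pool 98.0%, had a background of at most 2 input fragments, within 0.1. Most of these backgrounds were lower than 2. The value of 2 seen at the left and right sites stood under only 31 of 5226 peaks (even) and 30 of 4157 (odd). The background at these 2 sites was thus low, but higher than that of most peaks in the lists.

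The 3 sites were among the strongest peaks of both replicate 2 lists, on the values by which the locus was chosen. By fold the middle, right and left sites ranked 2, 3 and 5 of 5226 with the even pool and 1, 3 and 4 of 4157 with the odd pool. By −log10 q the right site ranked 1 in both lists, with 170 and 209. By width the left site ranked 3 and 2, and the right site 5 in both. By summit fragments the right site ranked 4 in the even list and 1 in the odd list. Peaks with as many summit fragments as the weakest Creb3 site mostly stood over a high input: with the even pool 9 of 13 had a background of 10 or more input fragments, and with the odd pool 6 of 10. Apart from the Creb3 sites, 1 peak in each list reached this count over a lower input.

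Both pools placed 5 of the 6 borders of the sites within 7 bp of each other. The right edges differed between pools by 2 bp at the left site, 7 bp at the middle site and 1 bp at the right site. The left edges differed by 54, 7 and 2 bp, the left site being longer with the odd pool. The summits lay 14 and 25 bp apart at the left and middle sites and 142 bp apart at the right site. The bases covered by both pools made up 93.8%, 96.4% and 99.6% of those covered by either. The last value was the highest of the 286 regions called with both pools in replicate 2, and the other two ranked 29 and 13. Over the remaining 283 regions the median was 51.4%, with median differences of 37 and 44 bp at the left and right edges. Close edges were also seen at other strong peaks. At the 10 other regions with the highest smaller fold of the pools, the median overlap was 95.4% and edges differed by at most 17 bp on the left and 46 bp on the right. The summits of those 10 regions lay a median of 14 bp and at most 133 bp apart, the latter at a region of 545 and 561 bp (even, odd). Those of the 283 regions lay a median of 45 bp apart, with an upper quartile of 89 bp. The distance of 142 bp at the right site was large beside both, but that site was also broad, at 779 and 782 bp. Median widths were 284 and 278.5 bp (even, odd) at the 10 regions and 141 and 134 bp at the 283. From the summits of the Creb3 sites, enrichment ended within 106 to 636 bp on the left and 145 to 496 bp on the right. Whether these borders coincide with exon borders was not analysed here, and what the DNA in these peaks came from was not tested.

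More fragments were recovered with the odd than with the even pool at each of the 3 sites relative to kept tags. The left site held 8.77 and 12.6 summit fragments per 1e+06 kept tags with the even and odd pools, the middle site 6.86 and 8.80, and the right site 10.9 and 13.9. The odd-to-even ratio was 1.44 at the left site (exact 95% interval 1.10 to 1.88), 1.28 at the middle site (0.937 to 1.76) and 1.28 at the right site (0.998 to 1.64). Over the summed fragments it was 1.33 (1.14 to 1.56). The interval lay above 1 at the left site and in the sum, and it included 1 at the middle and right sites. This is a description and not a test. The intervals cover counting error only, the sum treats the 3 sites as independent, and the locus was chosen on values of these libraries. A higher level with the odd pool was found at 60.5% of the 286 regions called with both pools, and a higher fold at 55.2%. Against this background, 3 of 3 sites in 1 direction is not set apart by its count. The median ratio over the other 283 regions was 1.06 (interquartile range 0.929 to 1.21). At the 5 sites of the chromosome 15 cluster the ratio of summed fragments was 1.09 (0.923 to 1.29). The ratio at the Creb3 locus was 1.22 times this value, with an exact conditional 95% interval of 0.970 to 1.54 that includes 1.

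**Figure D2:**
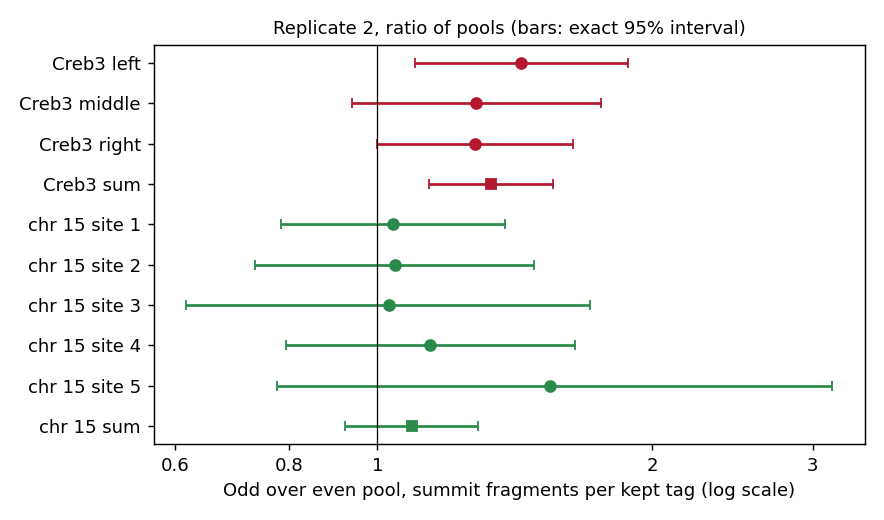
Ratio of the odd to the even pool in replicate 2 in summit fragments per kept tag (log axis), for the 3 Creb3 sites, the 5 chromosome 15 sites and the sum of each group (squares); bars are exact 95% intervals for counting error. The Creb3 sum lies at 1.33 with an interval above 1, and the chromosome 15 sum at 1.09 with an interval across 1.

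Replicate 1 had no peak in the interval with either pool. At the level per kept tag seen in replicate 2, the left site would hold 34.5 (even pool) and 51.7 (odd pool) summit fragments at the depth of replicate 1. The middle site would hold 27.0 and 36.1, and the right site 42.7 and 56.9. In the replicate 1 lists, the smallest summit called over a background of 2 input fragments, as at the left and right sites, was 9 with the even pool (10 such peaks) and 8 with the odd pool (9 such peaks). The scaled values of these sites were 3.83 to 7.11 times as high. Over the genome-wide mean background, as at the middle site, it was 4 with either pool, and the scaled values of the middle site were 6.75 and 9.02 times as high. The background of the replicate 1 input at these sites is not in the lists. In the replicate 1 lists, 25 to 48 of 234 even-pool peaks and 19 to 30 of 204 odd-pool peaks had summits at or above them. The pileup under uncalled positions is not in the lists, so the level in replicate 1 itself was not measured, and a level below the calling cutoff is not shown to be 0.

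**Figure D3:**
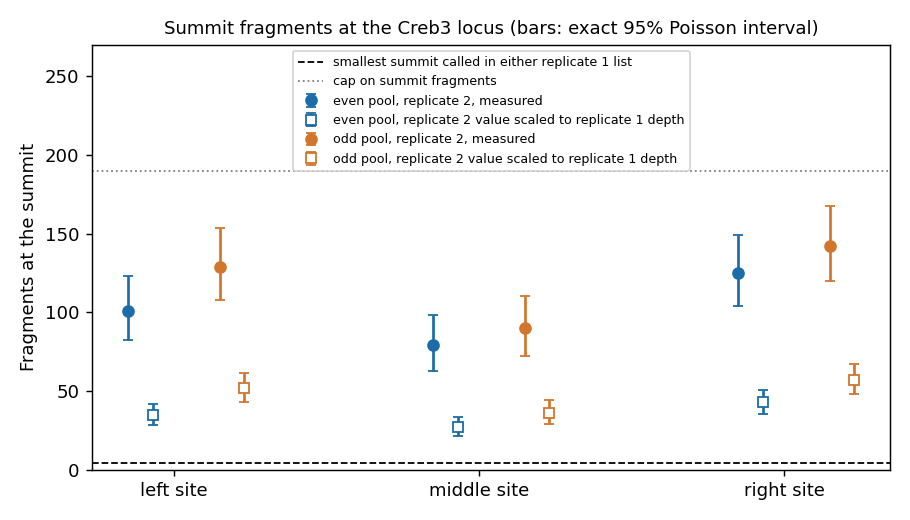
Fragments at the summit of the 3 Creb3 sites in replicate 2 (filled circles, even and odd pool) and the same values scaled to the kept tags of replicate 1 (open squares), with exact 95% Poisson intervals; the dotted line is the cap of 190 fragments. All 6 scaled values, from 27.0 to 56.9, lie above the smallest summit called in replicate 1 (4 fragments, dashed line), and those of the left and right sites also above the 9 and 8 fragments called there over 2 input fragments.

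Lack of a replicate 1 peak was common among regions called with both pools in replicate 2, at 85.3% of 286. Of the 10 regions with the highest smaller fold outside the Creb3 locus, 8 had a replicate 1 peak, 4 of them in the chromosome 15 cluster. The others without one were at 69604247 to 69604504 of chromosome 16, where the folds reached 17.7 and 17.1, and at 36100754 to 36101077 of chromosome 17, where they reached 13.4 and 10.3. Close to the former, a separate two-pool region (69603873 to 69604135, folds 9.77 and 7.90) did have a replicate 1 peak. The chromosome 16 stretch as a whole was thus not without one. By the smaller fold, the Creb3 sites ranked 2, 3 and 5 among the 286 regions, and the chromosome 16 region without a replicate 1 peak ranked 9. The 3 highest regions without a replicate 1 peak were therefore those of the Creb3 locus, which is a description, since the locus was chosen for it.

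**Figure D4:**
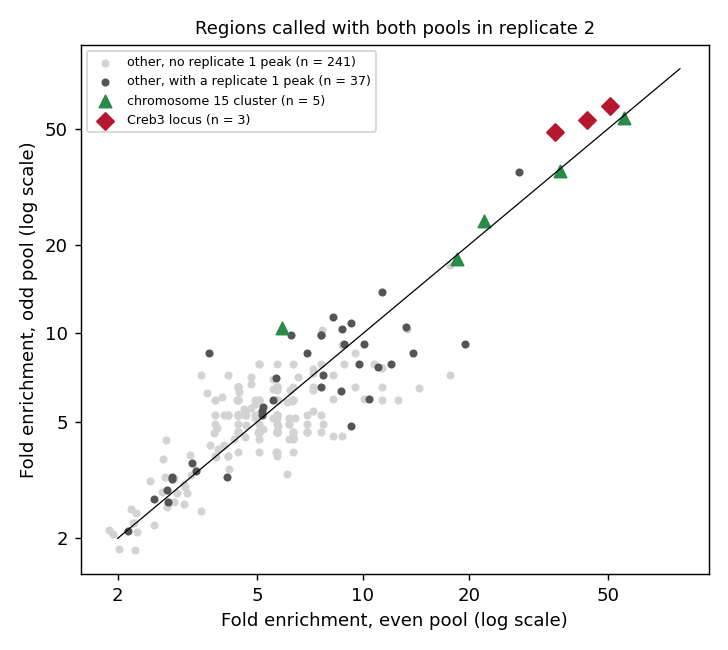
Fold enrichment with the even pool against the odd pool (both log axes) for the 286 regions called with both pools in replicate 2; the line marks equal folds. The 3 Creb3 sites (diamonds) lie at folds of 35.3 to 59.9 among the strongest chromosome 15 sites (triangles), away from the other regions that lack a replicate 1 peak (light grey).

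The chromosome 15 cluster (102857185 to 102866446) was set beside the locus because it too was a run of close regions with high folds over a low input. The genes at this cluster were not looked up here. Whether it holds the gene of the probed RNA was therefore not analysed, and it is not taken as an unrelated region. Its 5 sites had peaks of 2015 bp in all with the even pool and 2084 bp with the odd pool, against 2006 and 2079 bp at the 3 Creb3 sites. They were spread over 9189 and 9256 bp (even, odd), against 4143 bp at the Creb3 locus. Their folds ran from 5.88 to 55.5 (even) and 10.5 to 54.3 (odd), against 35.3 to 50.5 and 48.5 to 59.9. The summed summit fragments of the cluster were 291 and 282, against 305 and 361. The ratio of the Creb3 to the chromosome 15 sum was 1.05 with the even pool (exact 95% interval 0.890 to 1.23) and 1.28 with the odd pool (1.09 to 1.50). The clusters differed between replicates. The chromosome 15 sites held 493 and 527 summit fragments in replicate 1, which is 4.96 and 4.66 times their replicate 2 level per kept tag, while no Creb3 site was called there. This factor differed between the chromosome 15 sites: it was 2.96 to 3.93 at the 3 leftmost, 7.52 and 6.86 (even, odd) at the next and 13.9 and 12.3 at the last. At the next-to-last site the replicate 1 summits held 162 and 176 fragments (even, odd), near the cap of 190. The cap lowers the highest counts the most, so these factors and those of the sums may be lowered by unequal amounts. Scaled by the chromosome 15 fragments in place of kept tags, the Creb3 sites would hold 134 to 212 fragments with the even pool and 168 to 265 with the odd pool in replicate 1, some of them above the cap. Scaled by the 3 leftmost chromosome 15 sites alone they would hold 95.02 to 150.4 and 112 to 176.

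Sites that lie close together were a minority: 19.6% of the 286 regions had another within 5 kb. Runs of 3 or more such regions occurred at 7 places. Of these, 4 had a median smaller fold of 2.70 to 3.36 on a median input of 14.5 to 48.0 fragments. A run on chromosome X held 9 regions with a median of 4.43 on 3.56 input fragments. The Creb3 locus and the chromosome 15 cluster had medians of 43.6 and 22.1 over 2.0 and 1.0 input fragments. All 5 chromosome 15 regions and all 4 on chromosome 17 had a replicate 1 peak, and none of the regions in the other 5 runs had one.

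In replicate 2 the nearest peaks beyond the interval were at 43546465 to 43546607 (fold 5.05) and 43645207 to 43645317 (fold 4.63) with the even pool. With the odd pool they were at 43531459 to 43531553 (fold 5.43) and 43644954 to 43645054 (fold 5.92). Within 100 kb on either side the even list held 4 further peaks and the odd list 2, with 7 to 9 fragments at the summit, and replicate 1 held none. Spread evenly over the caller's effective genome, the replicate 2 lists would hold 0.559 and 0.445 peaks in 200 kb. Peaks need not be spread evenly, and whether this stretch holds more than similar ones was not tested. The folds of these flanking peaks, 4.63 to 5.68 (even) and 5.43 to 5.92 (odd), lay near the list medians of 5.05 and 5.26. The nearest replicate 1 peak was an even-pool peak 121 kb to the right (43700866 to 43700960, 6 fragments, fold 5.74). An odd-pool peak of replicate 2 (43700846 to 43700940, 8 fragments, fold 5.92) overlapped it by 75 bp. This weak position was called with 1 pool in each replicate. The odd list of replicate 1 had 7 peaks on the whole of chromosome 4, the nearest of them 26459 kb away.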

How the data were processed

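Only the 4 deposited peak lists were used; the 2 input libraries enter through them. Reads were handled with FastQC, cutadapt and Bowtie on build mm9, per the submitters' processing notes. Per the file headers, MACS 2.1.1.20160309 called the peaks of every capture against its replicate's input. It extended tags to 95 bp, kept 1 tag per position, scaled the larger library to the smaller and used a p cutoff of 5e-05. Replicates were not pooled. The deposited columns are a signal (fragments piled up at the summit), a fold, (pileup + 1) / (background + 1), and p-values and q-values as −log10, each the authors' value for 1 peak. The lists give no level where no peak was called. At the same cutoff a deeper library yields weaker peaks.

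The background was recovered from pileup and fold and expressed in input fragments. Peaks overlapping by at least 1 bp were merged into regions, and a region with several peaks of 1 pool was given its highest. Intervals are exact Poisson, binomial or conditional at 95%. Merging across pools and the exact binomial interval were tested on simulated data, and the other intervals were not. Python 3.11.15, numpy 2.4.6, pandas 2.3.3 and scipy 1.17.1 were used. The interval, the comparisons and the alternatives were chosen with earlier results of these data known. The members are all peaks of the interval. The chromosome 15 cluster and the 10 next regions by smaller fold were added for comparison; the runs of regions within 5 kb and the peak pair 121 kb away were chosen after their values were seen. No test across features and no p was computed, because each pool had 1 library per replicate. Exon positions of mm9 and genomic sequence of mm9 were not used here, so peaks were not placed on exons and no sequence is shown.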

Additional observations from a re-analysis of the deposited data

How the results depend on the processing

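A -log10 q of 5 or more and a fold of 5 or more left the counts at the locus as reported. So did an overlap of at least 50% of both peaks. The members lay far beyond these cutoffs, with -log10 q of 128 to 209, folds of 35.3 to 59.9 and overlaps of 93.8% to 99.6%. These cutoffs could therefore not have changed the counts. With the interval widened by 100 kb on either side, it held 7 even-pool and 5 odd-pool peaks in replicate 2 and 0 in each replicate 1 list. Over all lists the count was 6 without replicate 1 and 0 without replicate 2, which follows from how the locus was chosen. The odd-to-even ratio stayed above 1 at each site under all 4 other scalings, from 1.17 to 1.48. Shares by fold moved to 27.3%, 39.0% and 33.7% for the left, middle and right sites (even) and to 30.0%, 37.0% and 33.0% (odd), since the fold divides by a smaller background at the middle site. The summits scaled to replicate 1 became 59.5, 46.6 and 73.7 (even) and 80.2, 56.0 and 88.3 (odd) by total tags, and 171, 134 and 212 (even) and 241, 168 and 265 (odd) by chromosome 15 fragments. By the 3 leftmost chromosome 15 sites, an alternative chosen after seeing the data, they became 121, 95.02 and 150.4 (even) and 160, 112 and 176 (odd). Overlap with Creb3 exons was not run. No paired analysis was possible because the results come from no test: each pool has 1 library per replicate and the locus has values in replicate 2 alone. The depth of replicate 1 and the calling cutoff limit what can be said of its level at the locus.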
